A study of Drosophila melanogaster with 9 samples.

Results

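A set of 35 genes, of 17493 in the count table, was higher in *Drosophila* S2 cells after CycA dsRNA and lower after Myb dsRNA than after GFP dsRNA. The members were selected on these same libraries. A gene was chosen by its CPM (the count divided by the library's total and multiplied by 1000000), with a mean of at least 2 CPM in the GFP dsRNA cells, which 7061 genes reached, with a log2 ratio of mean CPM of at least 0.5 for CycA over GFP dsRNA, and of at most -0.5 for Myb over GFP dsRNA. Those thresholds gave 42 genes, and 7 of these were left out by symbol because their names mark the antimicrobial peptide, peptidoglycan recognition or glutathione transferase families. Because the choice used both knockdowns, the levels of the members are a description of the libraries and carry no test.

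The study asked how cells switch from mitotic cycles to endoreplication, in which the genome is copied without division. Poly(A) RNA was sequenced from S2-DGRC cells, an embryo-derived line whose cells resemble hemocytes, the blood cells of the fly, 96 h after dsRNA was added. There were 3 biological replicates of each of 3 groups, which were mitotic cycling cells with GFP dsRNA as the control, CycA dsRNA induced endoreplicating cells (iECs) and Myb dsRNA iECs. The labels give 12% serum for all 9 libraries, whereas the methods give the S2 cells a lower percentage and 12% to the iECs, so the serum of the GFP dsRNA cells is uncertain and its part in any difference from the control was not tested.

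Cyclin A activates Cdk1 for entry into mitosis, and Myb is the DNA-binding subunit of the Myb-MuvB complex, which turns on genes of mitosis and cytokinesis and can hold other genes silent. Loss of either protein can leave cells copying their DNA without dividing. Hemocytes, the cells that S2 cells resemble, secrete basement membrane, opsonins and immune peptides, take up debris, and exchange adenosine, amino acids and other metabolites with the rest of the animal.

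The dsRNAs that define the 2 knockdown groups are shown by their first 150 bases, from positions 1 to 150 of sequences of 391 bases for CycA (3L) and 392 bases for Myb (X), because each member is defined by opposite responses to these reagents.
CycA dsRNA: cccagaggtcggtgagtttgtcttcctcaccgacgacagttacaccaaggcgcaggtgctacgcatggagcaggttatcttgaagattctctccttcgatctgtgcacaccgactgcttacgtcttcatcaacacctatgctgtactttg
Myb dsRNA: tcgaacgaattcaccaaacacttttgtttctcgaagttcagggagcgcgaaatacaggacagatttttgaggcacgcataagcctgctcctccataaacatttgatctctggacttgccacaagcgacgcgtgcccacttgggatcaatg
Over their full lengths, the longest run shared by the 2 sequences was 7 bases on the same strand and 8 bases with one of them reversed and complemented. GC content was 50.6% for CycA dsRNA and 51.0% for Myb dsRNA. Whether either dsRNA shares a run with the transcripts of the members was not analysed here.

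Both targets were depleted. *CycA* was at 183 ± 4.32 CPM (SD, n = 3) in GFP dsRNA cells and 29.5 ± 10.4 CPM in CycA dsRNA iECs, where replicate 2 kept the highest level at 41.5 CPM. *Myb* was at 214 ± 12.2 CPM in GFP dsRNA cells and 14.4 ± 1.40 CPM in Myb dsRNA iECs. Each target also differed from the control in the other knockdown. *CycA* was at 272 ± 2.49 CPM in Myb dsRNA iECs (fitted log2 fold change 0.50 ± 0.14, SE). *Myb* was at 160 ± 2.71 CPM in CycA dsRNA iECs (-0.37 ± 0.05). The part of these levels in those of the members was not tested. Total counts ran from 29128930 to 44280452 per library, and no 2 replicates agreed within sampling noise. Of the hemocyte markers, *srp* (204 CPM), *ush* (220 CPM), *crq* (217 CPM) and *Col4a1* (78.9 CPM) were present in GFP dsRNA cells, while *Hml* (0.668 CPM), *He* (0.499 CPM) and *NimC1* (0.443 CPM) were near 0. The summed CPM of the 14 hemocyte markers was 727 to 837 in GFP dsRNA, 1146 to 1218 in CycA dsRNA and 958 to 1050 in Myb dsRNA libraries. Muscle markers summed to 10.1 to 13.6, 51.0 to 55.1 and 24.5 to 24.8 CPM in the same order, and fat body markers to 3.34 to 3.64, 6.48 to 7.26 and 7.04 to 7.67 CPM. Neuron markers summed to 29.4 to 36.9, 43.5 to 48.6 and 42.9 to 44.9 CPM and germline markers to 136 to 141, 153 to 154 and 187 to 193 CPM. All 5 sums were higher than the control in both knockdowns, and none followed the members in being lower with Myb dsRNA. Most of the muscle, fat body, neuron and germline sums came from 1 gene each, given here in GFP, CycA and Myb dsRNA cells. These were *sls* (10.5, 49.5 and 18.9 CPM), *apolpp* (2.42, 4.83 and 5.43 CPM), *elav* (31.6, 41.3 and 37.9 CPM) and *aub* (124, 136 and 161 CPM). Other markers could differ, such as *piwi* at 2.94, 0.964 and 2.98 CPM, so these sums say little about their cell types. Within the hemocyte list *eater*, a phagocytic receptor of hemocytes, was at 3.07, 47.5 and 2.35 CPM in GFP, CycA and Myb dsRNA cells, and *He* was at 0.499, 13.6 and 0.840 CPM. *srp* was at 204, 187 and 209 CPM, *Pxn* at 50.8, 45.7 and 65.7 CPM, *PPO2* at 5.53, 3.85 and 3.84 CPM and *Col4a1* at 78.9, 87.1 and 148 CPM, so the markers did not move as 1 group. The part of these markers in the levels of the members was not tested. In bulk RNA, fewer cells of a kind and less RNA per cell cannot be told apart.

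Over the 35 members, the log2 ratio of mean CPM for CycA over GFP dsRNA ran from 0.51 to 2.16, with a median of 0.89, and that for Myb over GFP dsRNA from -1.95 to -0.50, with a median of -0.77. The medians over the 7061 genes were -0.14 and 0.03. The mean CPM of each member in CycA dsRNA iECs was thus between 2.24 and 10.1 times that in Myb dsRNA iECs. The median was 3.29 times. CPM is a share of a library, and amounts per cell were not measured. The higher level with CycA dsRNA was the larger of the 2 departures in 22 members. It reached 1 on the log2 scale in 13 members, the lower level with Myb dsRNA reached -1 in 10, and both did in *CG10232*, *CG34437* and *CG14253*. All 35 members had their CycA dsRNA libraries above all GFP dsRNA libraries and their Myb dsRNA libraries below all of them, which 3.46% of the 9231 genes tested also had.

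**Figure D1:**
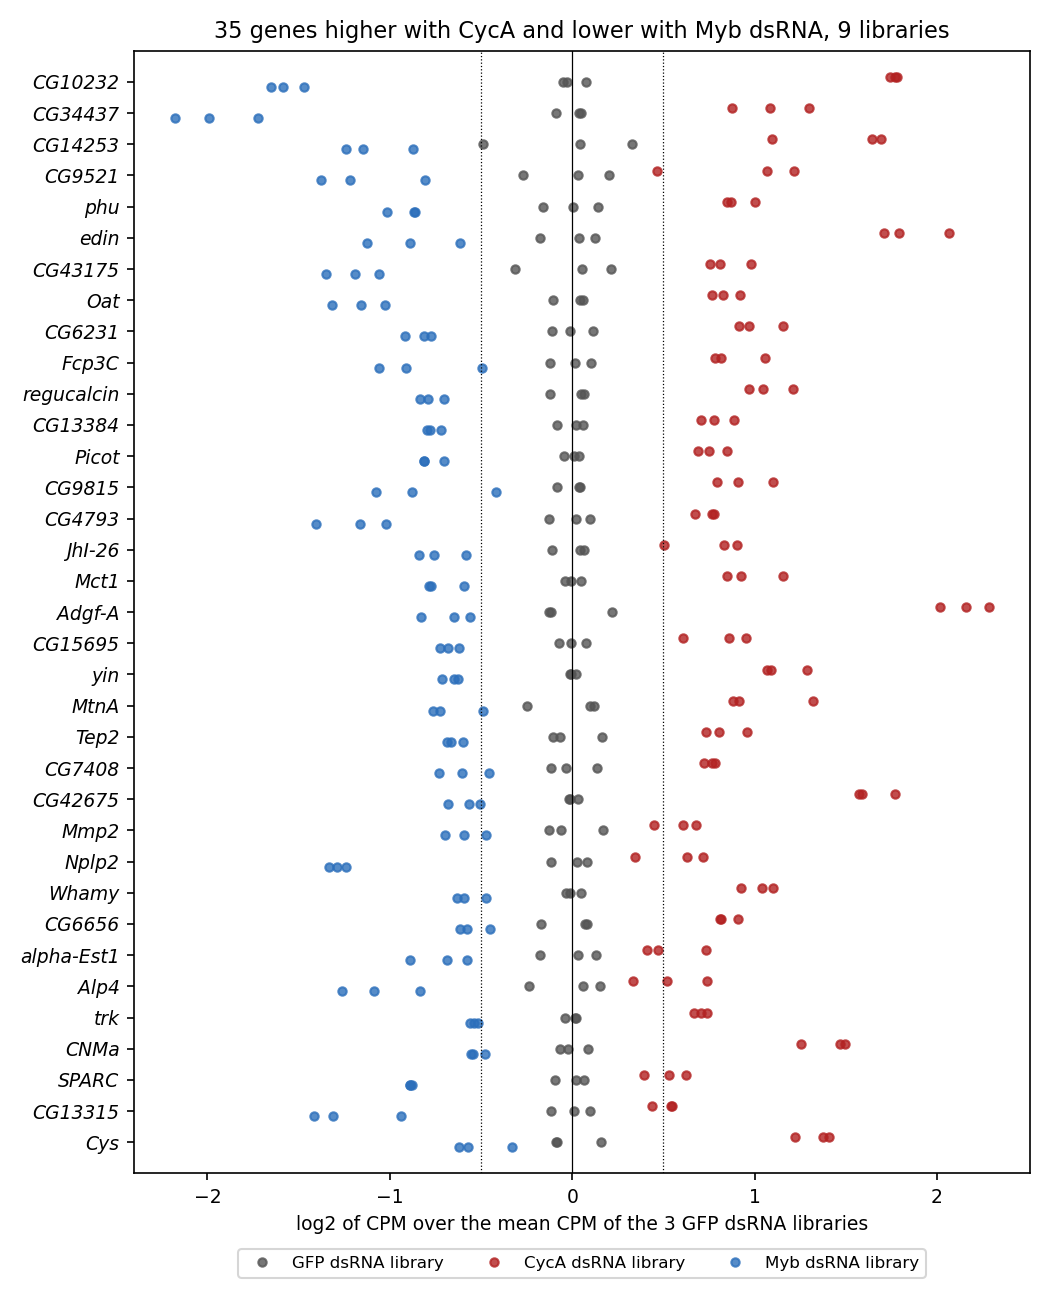
The level of each of the 35 members in each of the 9 libraries, as the log2 of CPM over the mean of the 3 GFP dsRNA libraries (horizontal axis), with 1 point per library and dotted lines at the thresholds of -0.5 and 0.5 that chose the members. The 3 groups do not overlap for any member, and the CycA dsRNA points of *Adgf-A* and *edin* and the Myb dsRNA points of *CG34437* lie farthest from the control.

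In the edgeR quasi-likelihood fit of all 9 libraries, calls needed a fitted change of 0.5 or more on the log2 scale, in either direction, and a Benjamini-Hochberg adjusted p under 0.05. All 35 members passed the filter on low counts, and all 35 were called higher with CycA dsRNA and lower with Myb dsRNA. Of the 9231 genes tested, 21.2% were called higher and 14.1% lower with CycA dsRNA, 14.9% were called higher and 6.78% lower with Myb dsRNA, and 0.823% were called higher with CycA dsRNA and lower with Myb dsRNA. The rule used the same contrasts, so nothing is read from the members' count. The 2 comparisons also share the 3 GFP dsRNA libraries, and a low control level alone would raise both ratios. Across all genes the more frequent joint calls were 879 genes higher in both knockdowns and 278 lower in both, beside 76 higher with CycA and lower with Myb dsRNA and 58 the other way round.

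**Figure D2:**
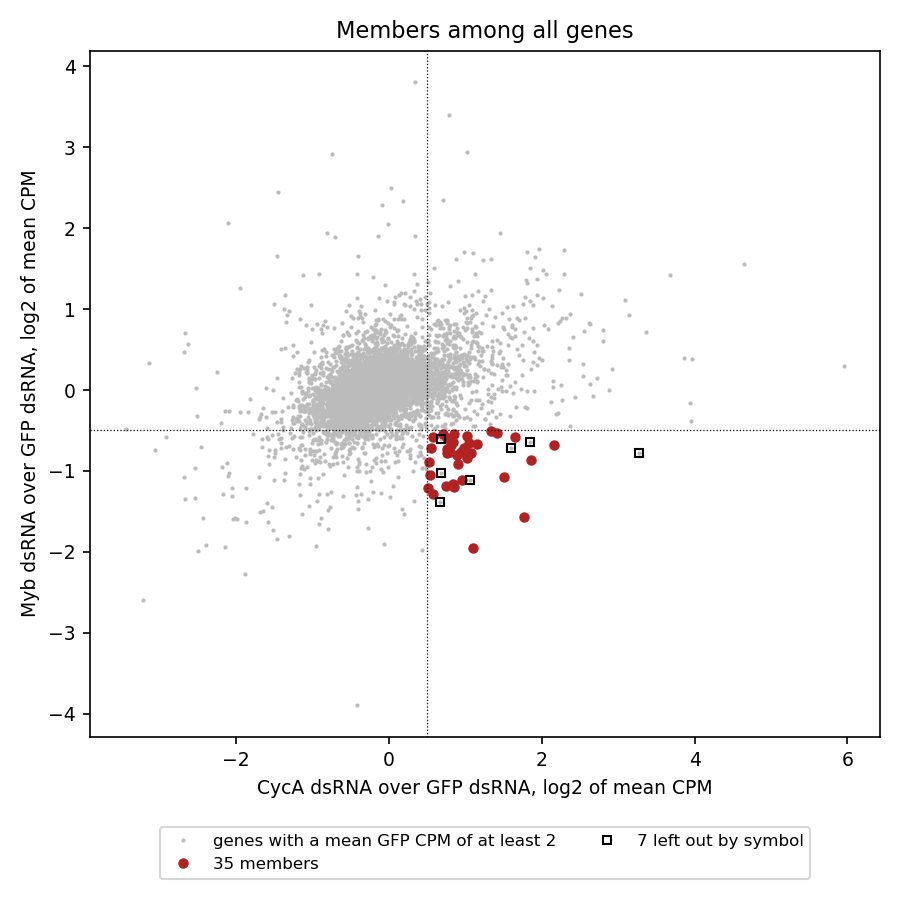
The log2 ratio of mean CPM for CycA over GFP dsRNA (horizontal axis) against that for Myb over GFP dsRNA (vertical axis) for genes with a mean of at least 2 CPM in GFP dsRNA cells (grey), the 35 members (red) and the 7 genes left out by symbol (squares), with dotted lines at the thresholds. Both axes are divided by the same 3 control libraries. The members occupy the lower right corner by construction, and *CG34437*, at -1.95, lies lowest among them.

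The members that carry metabolites across membranes included the most abundant one. *yin* (X:3862966-3871939, BDGP6.54) encodes an oligopeptide transporter of the proton-coupled family. It stood at 1726, 1693 and 1694 CPM in GFP dsRNA cells, 4159, 3625 and 3574 CPM in CycA dsRNA iECs, and 1089, 1102 and 1038 CPM in Myb dsRNA iECs. The control and Myb dsRNA libraries each lay close together, and CycA dsRNA replicate 1 was the highest. The fitted log2 fold changes were 1.20 ± 0.06 (SE) with CycA dsRNA and -0.74 ± 0.06 with Myb dsRNA. *CG13384*, predicted to encode an amino acid transporter, had 193, 189 and 175 CPM in GFP dsRNA, 344, 304 and 318 CPM in CycA dsRNA and 113, 107 and 108 CPM in Myb dsRNA libraries. Its fitted log2 changes were of nearly equal size, at 0.84 ± 0.05 and -0.84 ± 0.05.

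*CG6231*, predicted to encode an organic ion transporter, was at 105, 89.7 and 96.1 CPM in the controls, 216, 183 and 189 CPM with CycA dsRNA and 56.6, 51.2 and 55.1 CPM with Myb dsRNA. *Picot*, a phosphate cotransporter, had 15.9, 15.7 and 15.1 CPM in the controls, 25.1, 28.0 and 26.2 CPM with CycA dsRNA and 9.54, 8.85 and 8.85 CPM with Myb dsRNA. *Mct1*, a carrier of lactate and other monocarboxylates, had 9.69, 10.1 and 9.46 CPM, then 21.7, 17.6 and 18.5 CPM with CycA dsRNA and 5.66, 6.45 and 5.69 CPM with Myb dsRNA. Over these 5 transporters the log2 ratios of mean CPM, on which the rule chose them, were between 0.76 and 1.15 for CycA dsRNA and between -0.84 and -0.66 for Myb dsRNA. The other transporters measured were mixed. Of the 17 other tested genes on the list of phosphate, peptide, monocarboxylate and sugar transporters, 6 were called higher and 5 lower with CycA dsRNA, 2 higher and 7 lower with Myb dsRNA, and 4 were lower in both. Those lower in both included the trehalose transporter *Tret1-1*, at 153 CPM in GFP dsRNA, 79.6 CPM in CycA dsRNA and 59.4 CPM in Myb dsRNA cells (edgeR log2 fold changes -0.90, adjusted p = 4.6e-06, and -1.44, adjusted p = 1.2e-07). The phosphate cotransporter *NaPi-T* was higher in both, from 3.82 to 16.1 and 6.44 CPM. In GFP dsRNA cells 13 of the 17 reached 2 CPM, and those near 0 there could hardly be called lower. *Slc45-1*, a sugar transporter, was called in the members' directions (edgeR log2 fold changes 0.65 ± 0.09, adjusted p = 2.1e-05, and -0.55 ± 0.10, adjusted p = 0.00046), but its Myb over GFP log2 ratio of mean CPM was -0.48, just outside the rule.

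**Figure D3:**
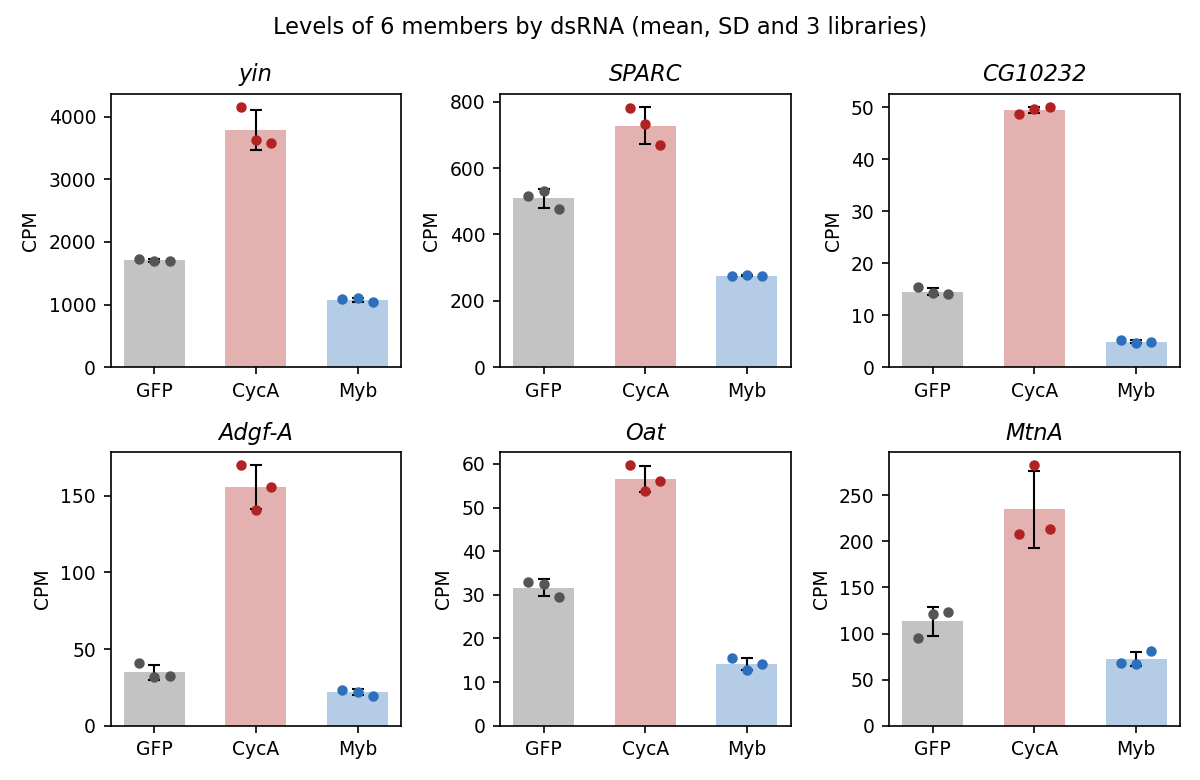
CPM of *yin*, *SPARC*, *CG10232*, *Adgf-A*, *Oat* and *MtnA* in GFP, CycA and Myb dsRNA cells, with bars for the mean of 3 libraries, error bars for the SD and 1 point per library, on axes that start at 0. Every CycA dsRNA point lies above and every Myb dsRNA point below the GFP dsRNA points. *MtnA* and *Adgf-A* spread more within a group than *CG10232*.

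*Adgf-A* (3L:17751731-17764158) had the largest CycA over GFP ratio of the members. It encodes a secreted adenosine deaminase, which hemocytes and other tissues use to remove extracellular adenosine. Levels were 40.6, 31.9 and 32.1 CPM in GFP dsRNA cells, 169.9, 141 and 156 CPM in CycA dsRNA iECs and 23.6, 22.2 and 19.6 CPM in Myb dsRNA iECs. The fitted log2 fold changes were 2.20 ± 0.09 and -0.75 ± 0.10, so the departure with CycA dsRNA was much the larger. The annotation places *Adgf-A2* on the same strand within the locus and *CG32181* and *CG32182* on the other strand, and how reads of overlapping genes were split is not given in the sources used here. Among 19 other tested genes of adenosine and adenine nucleotide metabolism, 9 were called higher and 3 lower with CycA dsRNA, and 4 higher and 1 lower with Myb dsRNA. *Adk1*, an adenylate kinase, was the only one called in the members' directions, with mean levels of 5.83, 8.13 and 3.04 CPM in GFP, CycA and Myb dsRNA cells (edgeR log2 fold changes 0.52, adjusted p = 0.00042, and -0.99, adjusted p = 9.3e-06). *AMPdeam*, the AMP deaminase, was higher in both knockdowns (0.57, adjusted p = 4.4e-08, and 0.61, adjusted p = 6.8e-08, edgeR). In GFP dsRNA cells 14 of the 19 reached 2 CPM. Genes near 0 there, such as *veil* (0.293, 1.48 and 1.78 CPM), could be called higher but hardly lower.

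The immune members were *edin* and *Tep2*. *edin* encodes a short peptide induced by infection, and it was among the least abundant members. Levels were 2.37, 2.22 and 1.92 CPM in GFP dsRNA, 9.10, 7.09 and 7.51 CPM in CycA dsRNA and 1.17, 0.995 and 1.42 CPM in Myb dsRNA libraries. Its groups were apart, as for all 35 members, with fitted log2 fold changes of 1.89 ± 0.13 and -0.92 ± 0.18. *edin* (3L:17494880-17495300) lies within *Oatp74D* on the same strand. *Tep2*, a thioester protein that coats bacteria, had 56.7, 48.3 and 47.1 CPM in the controls, 98.6, 84.3 and 88.5 CPM with CycA dsRNA and 33.5, 32.0 and 31.5 CPM with Myb dsRNA. *trk* is on the Toll list as a cystine-knot protein like the Toll ligand. It encodes a ligand of the Torso receptor and varied little between replicates, at 3.64, 3.79 and 3.78 CPM, then 5.94, 6.10 and 6.25 CPM with CycA dsRNA and 2.61, 2.57 and 2.54 CPM with Myb dsRNA.

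Antimicrobial peptide genes are kept out of the members by symbol or by level. All 10 other tested peptide genes were called higher with CycA dsRNA by edgeR, and 8 of them were called lower with Myb dsRNA. None was called the reverse in either knockdown, by edgeR, by DESeq2 or at an unadjusted p under 0.05 with no fold threshold, and DESeq2 called 7 in both of the members' directions. The 8 were *AttB*, *AttD*, *CecA1*, *CecA2*, *CecB*, *DptB*, *Dro* and *Mtk*. Of these, *AttD* and *CecA1* met the thresholds of the rule and were left out by symbol, so their calls were fixed by the same values as those of the members. *AttD*, an attacin, was at 5.33 CPM in GFP dsRNA, 51.7 CPM in CycA dsRNA and 3.10 CPM in Myb dsRNA cells, with fitted log2 fold changes of 3.33 ± 0.09 and -0.83 ± 0.12. *Mtk*, encoding metchnikowin, was at 1.59, 5.48 and 0.526 CPM in the same order. The other 2 peptide genes were not called with Myb dsRNA. *Drs*, encoding drosomycin, was at 2.20, 136 and 2.69 CPM, with a log2 fold change of 0.24 ± 0.22 with Myb dsRNA (edgeR adjusted p = 0.37), and *AttA* was at 0.579, 1.58 and 0.4996 CPM (-0.27 ± 0.27, adjusted p = 0.42). Of 12 peptidoglycan recognition and related genes, 8 were called higher with CycA dsRNA, 4 lower and 1 higher with Myb dsRNA, and *PGRP-SA*, *PGRP-SD* and *PGRP-LC* were called in both of the members' directions. These 3 also met the thresholds and were left out by symbol, so nothing is read from their calls. *PGRP-SA*, a receptor upstream of Toll, was at 33.6, 102 and 20.4 CPM, with fitted log2 fold changes of 1.64 ± 0.07 and -0.79 ± 0.08. The 7 genes left out by symbol were *CecA1*, *AttD*, *PGRP-SA*, *PGRP-SD*, *PGRP-LC*, *GstD2* and *GstE2*.

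The Toll and Imd lists hold components that signal to these peptide genes. The Toll list also holds *tor*, the Torso receptor, and the further Toll family receptors *Tollo*, *18w* and *Toll-7*. By edgeR, *18w* was called lower with CycA dsRNA, *Toll-7* higher in both knockdowns and *tor* higher with Myb dsRNA, and *Tollo* was not called. Of 16 other tested Toll genes, 8 were called higher and 1 lower with CycA dsRNA and 5 higher with Myb dsRNA (edgeR). None was lower with Myb dsRNA by edgeR or DESeq2, whereas at an unadjusted p under 0.05 with no fold threshold 6 were lower and 3 genes, *grass*, *Tl* and *pll*, took the members' directions. *Tl*, the Toll receptor, was at 13.5, 32.3 and 10.5 CPM in GFP, CycA and Myb dsRNA cells, and its log2 fold change of -0.43 ± 0.08 with Myb dsRNA (edgeR adjusted p = 0.00042) missed the fold threshold only. *spz*, the Toll ligand, was higher in both knockdowns, at 212, 554 and 396 CPM. *Dif*, a transcription factor of the pathway, was also higher in both, at 10.5, 17.99 and 17.6 CPM. In GFP dsRNA cells 13 of these 16 Toll genes reached 2 CPM, and those near 0 there could hardly be called lower. Of 14 Imd genes, 3 were called higher with CycA dsRNA by edgeR, and none was called with Myb dsRNA by edgeR or DESeq2. At the unadjusted level 1 was higher and 4 lower with Myb dsRNA, and 2 took the members' directions. These were *pirk*, an inhibitor of the pathway (1.30 ± 0.05, adjusted p = 2.9e-11, and -0.43 ± 0.06, adjusted p = 1.6e-05, edgeR log2 fold changes), and *Rel*, its transcription factor (0.76 ± 0.04, adjusted p = 8e-10, and -0.11 ± 0.04, adjusted p = 0.034). Of 18 other genes of phagocytosis and opsonins, 13 were called higher and 1 lower with CycA dsRNA, while 5 were higher and 1 lower with Myb dsRNA. Of the 18, 9 reached 2 CPM in GFP dsRNA cells, and those near 0 there could hardly be called lower. None of the 18 took the members' directions by edgeR or DESeq2, and 1 did at the unadjusted level. Among all genes tested, edgeR called 0.823% in both of these directions, so an absence on lists of this length says little about their genes.

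Matrix proteins and peptidases made up a further 5 members. *SPARC* (3R:26869238-26871995) encodes a collagen-binding glycoprotein of the basement membrane. Its libraries read 517, 532 and 476 CPM with GFP dsRNA, 783, 734 and 669 CPM with CycA dsRNA and 275, 277 and 274 CPM with Myb dsRNA. The fitted log2 fold changes were 0.56 ± 0.06 and -0.96 ± 0.06. *SPARC* was the opposite case from *Adgf-A*, with the larger departure in Myb dsRNA iECs and a CycA dsRNA level just past the threshold, and it was no longer called in both knockdowns when GFP dsRNA replicate 3 was left out. *Mmp2*, a matrix metalloproteinase, was at 95.3, 77.5 and 81.2 CPM in the controls, 135, 115 and 129 CPM with CycA dsRNA and 61.0, 56.1 and 52.1 CPM with Myb dsRNA.

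*CG10232* (3R:23719343-23721625), predicted to encode a serine protease, had the largest difference between the 2 knockdowns, at 10.1 times. Its levels were 15.3, 14.3 and 14.04 CPM in GFP dsRNA, 48.8, 49.7 and 50.05 CPM in CycA dsRNA and 5.25, 4.63 and 4.85 CPM in Myb dsRNA libraries. The replicates were tight, and the fitted log2 fold changes were 1.81 ± 0.05 and -1.63 ± 0.07. *CG4793*, another predicted serine protease, was at 8.88, 7.59 and 8.39 CPM in the controls, 14.1, 14.2 and 13.2 CPM with CycA dsRNA and 4.08, 3.70 and 3.13 CPM with Myb dsRNA. *Cys*, a cystatin-like inhibitor of cysteine proteases, had 9.64, 11.4 and 9.66 CPM, then 26.6, 27.2 and 23.9 CPM with CycA dsRNA and 8.15, 6.65 and 6.89 CPM with Myb dsRNA. Its Myb over GFP log2 ratio of -0.50 was the closest of all members to the threshold.

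Calls of other basement membrane genes were mixed. Of 19 tested, 8 were called higher and 1 lower with CycA dsRNA, and 7 were higher and 3 lower with Myb dsRNA (edgeR). None was higher with CycA and lower with Myb dsRNA by edgeR or DESeq2, and 4 were at the unadjusted level. Among all genes tested, edgeR called 0.823% so, and an absence on a short list says little about its genes. *vkg*, a collagen IV chain, was at 47.4 CPM in GFP dsRNA, 65.6 CPM in CycA dsRNA and 94.4 CPM in Myb dsRNA cells. *trol*, encoding perlecan, was at 61.0, 128 and 113 CPM, and was thus higher in both knockdowns (edgeR log2 fold changes 1.11 ± 0.09, adjusted p = 5.2e-08, and 0.82 ± 0.09, adjusted p = 3.2e-06). Of 18 neprilysins and other extracellular peptidases, 12 were called higher with CycA dsRNA, while 8 were higher and 5 lower with Myb dsRNA. Of the 18, 4 reached 2 CPM in GFP dsRNA cells, and those near 0 there could hardly be called lower. Among the 18, *Nepl19* (20.1, 33.4 and 14.5 CPM) and *Nepl4* (3.81, 5.33 and 2.78 CPM) were called in the members' directions.

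**Figure D4:**
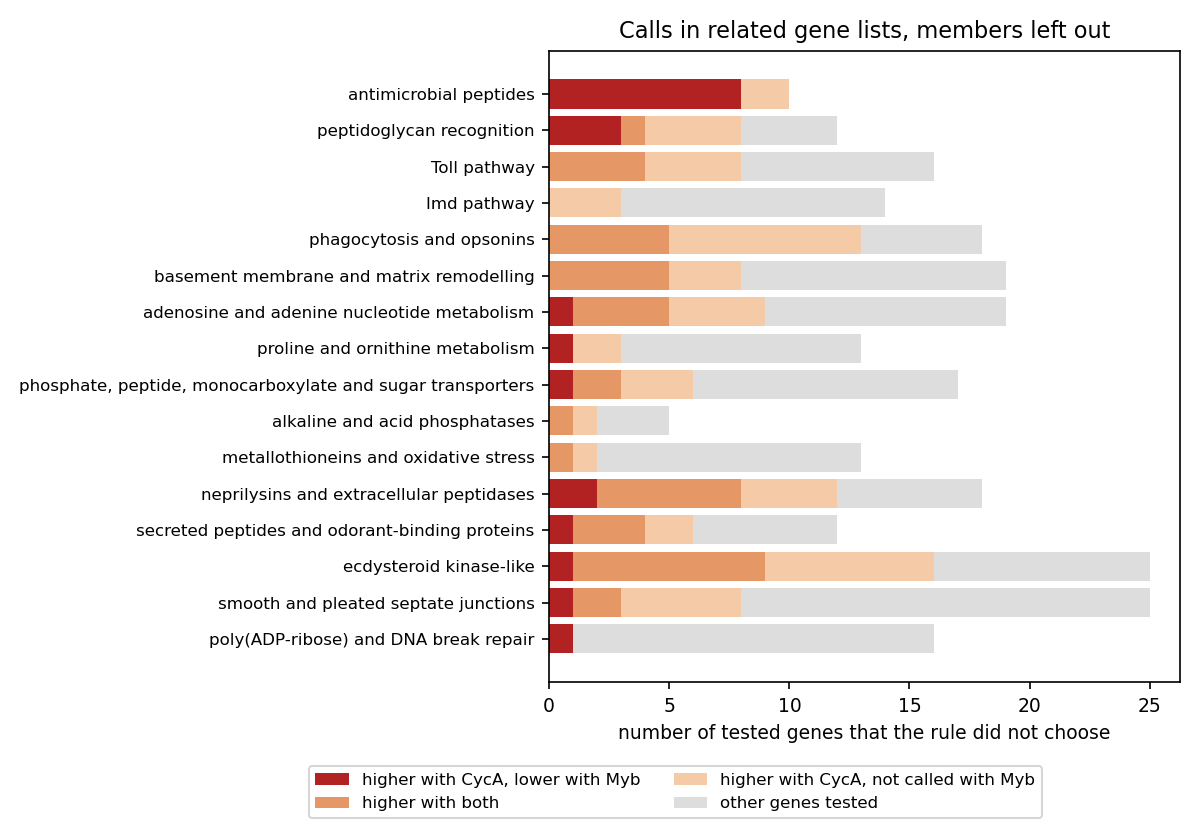
The number of tested genes outside the rule on each of 16 gene lists (horizontal axis), divided by their edgeR calls: higher with CycA and lower with Myb dsRNA, higher in both, higher with CycA dsRNA and not called with Myb dsRNA, and all others. The antimicrobial peptides hold 8 of the first kind among 10 genes, 2 of which met the thresholds and were left out by symbol, as did the 3 of peptidoglycan recognition, and the Toll, Imd, phagocytosis, basement membrane, phosphatase and metallothionein lists hold none. Among all genes tested, 0.823% were of the first kind.

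*CNMa* and *Nplp2* encode precursors of secreted peptides, and the peptide of *CNMa* acts in the feeding response to amino acids. *CNMa* was at 4.27, 3.96 and 3.84 CPM in GFP dsRNA, 9.61, 11.1 and 11.3 CPM in CycA dsRNA and 2.76, 2.74 and 2.88 CPM in Myb dsRNA libraries. *Nplp2* was far more abundant per kb of exon, at 141 CPM per kb in GFP dsRNA cells, and its libraries read 79.2, 91.0 and 87.6 CPM, then 133, 141 and 109 CPM with CycA dsRNA and 35.2, 34.2 and 36.3 CPM with Myb dsRNA. They differed in balance, with fitted log2 fold changes of 1.46 ± 0.09 and -0.60 ± 0.11 for *CNMa* and 0.62 ± 0.08 and -1.36 ± 0.09 for *Nplp2*. *Fcp3C*, a protein of the ovarian follicle cells, had 4.97, 5.28 and 4.52 CPM in the controls, 8.65, 10.2 and 8.46 CPM with CycA dsRNA and 2.61, 3.50 and 2.36 CPM with Myb dsRNA. Of 12 other secreted peptides and odorant-binding proteins, 6 were called higher and 3 lower with CycA dsRNA, and 3 higher and 4 lower with Myb dsRNA. Of these, only *Obp99a*, an odorant-binding protein, took the members' directions, at 1.33, 1.98 and 0.814 CPM, with its control level under the minimum of the rule. In GFP dsRNA cells 8 of the 12 reached 2 CPM, and those near 0 there could hardly be called lower.

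The enzymes of metabolism included *Oat* (3L:19647280-19649851), the mitochondrial ornithine aminotransferase, which links arginine and ornithine to proline and glutamate. *Oat* was at 32.9, 32.5 and 29.4 CPM in GFP dsRNA, 59.7, 53.7 and 56.1 CPM in CycA dsRNA and 15.5, 12.7 and 14.1 CPM in Myb dsRNA libraries. Its fitted log2 fold changes were 0.88 ± 0.06 and -1.23 ± 0.07, and the groups did not overlap, as for all 35 members. Of 13 other tested genes of proline and ornithine metabolism, 3 were called higher and 3 lower with CycA dsRNA. With Myb dsRNA none was higher by edgeR or DESeq2, 2 were at the unadjusted level, and 1 was called lower. That 1 gene was *P5cr-2*, a pyrroline-5-carboxylate reductase that makes proline, at 4.50, 6.95 and 3.30 CPM (edgeR log2 fold changes 0.67 ± 0.09, adjusted p = 8.7e-06, and -0.51 ± 0.10, adjusted p = 0.00056).

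*regucalcin*, a calcium-binding protein with lactonase relatives, had 65.9, 66.6 and 58.5 CPM in the controls, 147, 131 and 125 CPM with CycA dsRNA and 39.1, 36.8 and 35.6 CPM with Myb dsRNA. *CG9521*, a predicted oxidoreductase of the glucose-methanol-choline family, varied more between replicates, at 25.9, 32.0 and 35.9 CPM, then 43.2, 65.7 and 72.7 CPM with CycA dsRNA and 12.1, 13.4 and 17.9 CPM with Myb dsRNA. *CG9521* overlaps *Flo2* on the other strand. *JhI-26*, named for its induction by juvenile hormone and placed with the ecdysteroid kinase-like family, had 46.1, 52.1 and 51.3 CPM, then 70.8, 88.7 and 93.1 CPM with CycA dsRNA and 27.8, 29.4 and 33.3 CPM with Myb dsRNA. Of 25 other tested genes of that family, 16 were called higher and 1 lower with CycA dsRNA, 11 higher and 1 lower with Myb dsRNA, and only *CG10550* (10.8, 17.5 and 7.96 CPM) matched *JhI-26* in both directions. Of the 25, 9 reached 2 CPM in GFP dsRNA cells. Some others, such as *CG9498* (0.117, 0.246 and 1.37 CPM), were near 0 in the controls and passed the filter through a knockdown group. Such genes could be called higher but hardly lower.

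*MtnA* (3R:9783407-9784370) encodes the copper-binding metallothionein. Its libraries read 95.3, 121 and 123 CPM with GFP dsRNA, 208, 283 and 213 CPM with CycA dsRNA and 68.4, 66.6 and 80.8 CPM with Myb dsRNA. Spread was wider than for most members, with CycA dsRNA replicate 2 the highest. Of 13 other tested genes of metallothioneins and oxidative stress, 2 were called higher and 4 lower with CycA dsRNA, and 1 higher and 2 lower with Myb dsRNA. None took the members' directions by edgeR or DESeq2, where edgeR called 0.823% of all genes tested so, and 2 did at the unadjusted level. *Whamy*, an actin nucleation factor of the WASP family, lies 8988 bases from *MtnA* on the same strand with 5 annotated genes between them, and had 13.2 to 13.98 CPM in the controls, 25.6 to 29.0 CPM with CycA dsRNA and 8.71 to 9.75 CPM with Myb dsRNA.

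The phosphatases were *phu* and *Alp4*, annotated as alkaline, and *CG6656*, predicted to be an acid phosphatase. *phu* was at 15.2, 16.7 and 13.5 CPM in GFP dsRNA, 30.3, 27.7 and 27.2 CPM in CycA dsRNA and 8.29, 7.48 and 8.33 CPM in Myb dsRNA libraries. *Alp4* was at 11.8, 15.5 and 14.5 CPM, then 17.6, 23.3 and 20.01 CPM with CycA dsRNA and 5.83, 7.82 and 6.56 CPM with Myb dsRNA. Replicate 1 of *Alp4* was the lowest in all 3 groups, so that its CycA dsRNA replicate 1 was only a little above GFP dsRNA replicate 2. *CG6656* was at 4.25, 4.28 and 3.59 CPM, then 7.07, 7.12 and 7.59 CPM with CycA dsRNA and 2.95, 2.71 and 2.64 CPM with Myb dsRNA. Of 5 other tested phosphatases, 2 were called higher with CycA dsRNA and 1 higher with Myb dsRNA. None was lower in either by edgeR or DESeq2, and at the unadjusted level 1 was lower with each knockdown. The phosphatase *Acph-1* took the members' directions at that level (edgeR log2 fold changes 0.84 ± 0.05, adjusted p = 1.8e-09, and -0.19 ± 0.05, adjusted p = 0.0057).

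Members with no role given here also took part. *CG34437* had the lowest Myb over GFP ratio of all, at 2.78, 3.02 and 3.05 CPM in GFP dsRNA, 5.42, 6.26 and 7.25 CPM in CycA dsRNA and 0.743, 0.652 and 0.895 CPM in Myb dsRNA libraries. The lowest of these rests on 19 counts, and the fitted log2 fold changes were 1.16 ± 0.12 and -1.99 ± 0.18. *CG14253* was at 7.75, 4.39 and 6.36 CPM, then 19.9, 13.2 and 19.2 CPM with CycA dsRNA and 2.78, 3.36 and 2.61 CPM with Myb dsRNA. Its GFP dsRNA replicate 2 and CycA dsRNA replicate 2 were both low. It overlaps *CG46313* on the same strand and *CG31075* on the other strand. *CG31075* had log2 ratios of mean CPM of -0.24 for CycA and -1.13 for Myb over GFP dsRNA. It was called lower with Myb dsRNA, and the part of either overlap in the level of *CG14253* was not tested. *CG43175* was at 23.6, 21.2 and 16.4 CPM, then 40.3, 35.8 and 34.5 CPM with CycA dsRNA and 9.78, 8.95 and 8.01 CPM with Myb dsRNA. *CG9815* was at 3.18, 3.17 and 2.91 CPM, then 5.36, 6.62 and 5.79 CPM with CycA dsRNA and 1.46, 1.68 and 2.31 CPM with Myb dsRNA. *CG15695* was at 4.97, 4.48 and 4.69 CPM, then 8.55, 7.19 and 9.10 CPM with CycA dsRNA and 3.07, 2.85 and 2.93 CPM with Myb dsRNA. *CG9815* and *CG15695* were thus both low in level. Their groups were apart in every library, as for all 35 members, against 3.46% of all genes tested. The members were chosen on these libraries, so nothing is read from this. The remaining members were *CG42675*, at 18.7 to 19.4 CPM in the controls, 56.4 to 64.8 CPM with CycA dsRNA and 11.8 to 13.3 CPM with Myb dsRNA, and 3 others at lower levels. *CG7408*, a predicted sulfatase, had 8.53 to 10.2 CPM in GFP dsRNA, 15.3 to 15.9 CPM in CycA dsRNA and 5.57 to 6.72 CPM in Myb dsRNA libraries. *alpha-Est1*, a carboxylesterase, had 1.81 to 2.23 CPM, 2.71 to 3.39 CPM and 1.10 to 1.37 CPM, and *CG13315* had 2.20 to 2.55 CPM, 3.23 to 3.49 CPM and 0.892 to 1.243 CPM, in the same order.

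Summed over the 35 members, GFP dsRNA libraries held 3274, 3250 and 3169 CPM, CycA dsRNA libraries 6984, 6355 and 6196 CPM, and Myb dsRNA libraries 1956, 1947 and 1899 CPM. *yin* made up more of the sum than all other members together in all 9 libraries. Without it the sums were 1475 to 1556 CPM, 2622 to 2825 CPM and 845 to 867 CPM, in the same order. The members were less abundant than the genes they were drawn from: the median in GFP dsRNA cells was 14.6 CPM, against 52.5 CPM over the 7061 genes, and 10 members were under 5 CPM. Per kb of exon, *yin* (519.9 CPM per kb), *SPARC* (423 CPM per kb) and *MtnA* (162 CPM per kb) were the most abundant. Exon length was similar, with a median of 1900 bases against 2141. The spread between replicates was wider than in the other genes, with a median coefficient of variation of 7.49% against 5.15% in GFP dsRNA, 8.56% against 3.95% in CycA dsRNA and 7.86% against 3.40% in Myb dsRNA libraries.

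The choice was repeated on 2 replicates of each group, and the chosen genes were then read in the replicate that was left out. Without replicate 1, 36 genes were chosen, of which 32 are members, and 35 of the 36 were higher with CycA and lower with Myb dsRNA in replicate 1 alone. The exception was *mt:ND4L*, a mitochondrial gene that is not a member. Without replicate 2, 37 genes were chosen, and all 37 kept both directions in replicate 2. Without replicate 3, 38 genes were chosen, and all 38 did so in replicate 3. Both thresholds of 0.5 were passed in the left-out replicate by 28, 27 and 24 of the chosen genes. Over all genes at this level, 11.7%, 9.44% and 10.8% had both directions in the left-out replicate, and 0.693%, 0.609% and 0.552% passed both thresholds. Each left-out replicate compares its 2 knockdown libraries with 1 shared GFP dsRNA library, and the rule also used these libraries. The replicate numbers are those of the titles, and whether same-numbered libraries belong together is uncertain. The values are a description, and no test was made.

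**Figure D5:**
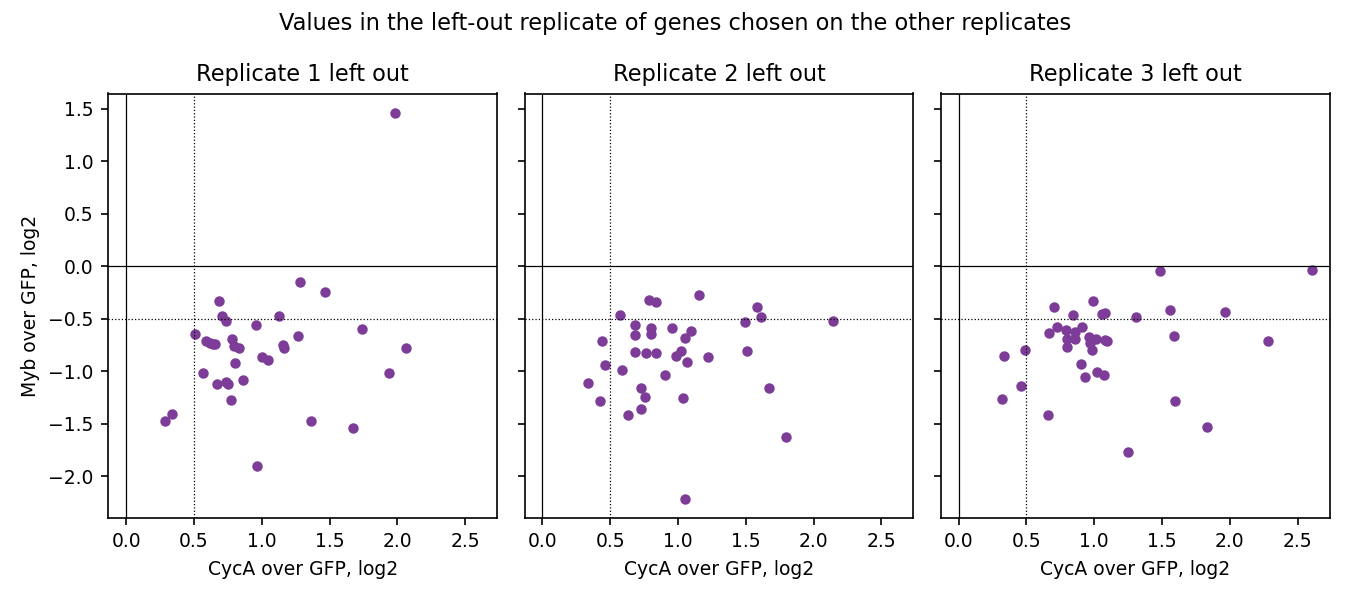
For genes chosen on 2 replicates of each group, the log2 ratio of CPM for CycA over GFP dsRNA (horizontal axis) and for Myb over GFP dsRNA (vertical axis) in the replicate left out, with 1 point per gene, 1 panel per left-out replicate, solid lines at 0 and dotted lines at the thresholds of 0.5 and -0.5. The single point high above 0 with replicate 1 left out is *mt:ND4L*, and all others lie below 0.

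All 35 members are annotated as protein coding. On the chromosome arms, 15 of 35 (42.9%) lie on 3R, which holds 24.3% of the genes at the same control level, 7 (20%) on 3L, 5 (14.3%) on X, and 4 each on 2L and 2R (11.4%). This is a description with no test. Members were seldom close together. Besides *Whamy* and *MtnA*, the nearest were *SPARC* and *CG14253*, 106546 bases apart, and *Adgf-A* and *CG7408*, 114938 bases apart. Several other members share bases with an annotated gene on the other strand, such as *yin* with *CG2930*, *regucalcin* with *Chrac-16* and *CG13384* with *CG42819*. *CG2930* had log2 ratios of mean CPM of 0.28 for CycA and -0.83 for Myb over GFP dsRNA, and was called lower with Myb dsRNA. *Chrac-16* had ratios of -0.42 and 0.001 in the same order. The libraries were stranded, but whether the counting used strand is not given in the sources used here. None of the 68 nearest neighbours with a control level of at least 2 CPM was itself a member. *AttD*, beside *CG43175*, was the only one of them that met the thresholds, while 20 were called higher with CycA dsRNA and 7 lower with Myb dsRNA by edgeR.

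Myb-MuvB targets of mitosis and cytokinesis moved otherwise. Of 26 such genes tested, 23 were called lower with CycA dsRNA and 17 with Myb dsRNA by edgeR, all 17 in both. None was higher in either by edgeR or DESeq2, and at the unadjusted level 2 were higher with Myb dsRNA and none with CycA dsRNA. *aurB*, encoding the Aurora B kinase, was at 64.8, 14.2 and 33.4 CPM in GFP, CycA and Myb dsRNA cells. *polo*, a mitotic kinase, was at 215, 49.8 and 103 CPM. None of the members is on this list. The study had reported several of its genes, such as *aurB*, *polo*, *tum* and *pav*, as lower in both knockdowns of these libraries. A gene lower with CycA dsRNA cannot meet the rule, so nothing about the members is read from these calls. Of 16 genes of poly(ADP-ribose) and DNA break repair, *Parp* (25.0, 41.6 and 17.8 CPM) was the only one called higher with CycA and lower with Myb dsRNA (edgeR log2 fold changes 0.78 ± 0.07, adjusted p = 1.8e-07, and -0.57 ± 0.08, adjusted p = 2.1e-05), and its Myb over GFP log2 ratio of mean CPM of -0.49 kept it just outside the rule. Of 25 septate junction genes, 8 were called higher and 2 lower with CycA dsRNA, 3 higher and 1 lower with Myb dsRNA, and *Ssk* (1.23, 2.09 and 0.832 CPM) alone took the members' directions.

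The members nearest the thresholds were separated from those outside by little. For the control level, *alpha-Est1* (2.04 CPM), *edin* (2.17 CPM) and *CG13315* (2.38 CPM) were just inside, and *CG32373* (1.95 CPM), *asRNA:CR46354* (1.67 CPM) and *Obp99a* (1.33 CPM) just outside. For the CycA over GFP log2 ratio, *CG13315* (0.51), *SPARC* (0.52) and *Alp4* (0.54) were just inside, and *jdp* (0.49), *Adk1* (0.48) and *asRNA:CR46139* (0.46) just outside. For the Myb over GFP log2 ratio, *Cys* (-0.50), *CNMa* (-0.53) and *trk* (-0.54) were just inside, and *Parp* (-0.49), *Slc45-1* (-0.48) and *CG30414* (-0.47) just outside.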

How the data were processed

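The 9 RNA-Seq libraries of S2 cells, 3 each with GFP, CycA or Myb dsRNA, were examined. Groups and replicate numbers came from the sample titles. For the last CycA and Myb dsRNA replicates, the deposited column names carry another number than the titles. The left-out replicates and the replicate block rest on the numbers of the titles. The submitters' processing notes name FastQC 0.11.5, STAR 2.6.1a, featureCounts and DESeq2 1.14.1. The genome is Release 6 of the fly, and the strand setting and the treatment of reads with several positions are not given in the sources used here. The authors deposited raw counts, not normalized, for 17493 genes with the exon length. The authors also deposited fold changes and p-values of each knockdown against GFP dsRNA, which were not used. In the count table, 5 symbols stored as dates were restored from identifiers.

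The rule was applied to CPM with no further scaling. One edgeR 4.0.16 model (R 4.3.3) was fitted to the counts, with terms for the 3 groups (TMM factors, filter with a minimum count of 10, quasi-likelihood test), which kept 9231 genes, with p-values adjusted over these by the Benjamini-Hochberg method. The SE given with a fitted log2 fold change is the size of that change divided by the square root of its quasi-likelihood F statistic. Scaling by TMM moved the fitted log2 fold changes from the rule's ratios by a median of 0.04 with CycA dsRNA and -0.07 with Myb dsRNA. The filter on low counts keeps a gene that is high only in a knockdown group. Such a gene, near 0 in the controls, can be called higher but hardly lower, which bears on the counts for the gene lists. The fit was tested on simulated data. Positions and overlaps came from the BDGP6.54 annotation, matched by identifier for 17372 genes. *Nplp2* was not matched there, so its position on 3L came from the RefSeq annotation, and its overlaps and nearest neighbours were not examined. The dsRNA sequences are those given by the study. Salivary gland and brain-disc libraries were not analysed here.

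The members and the gene lists were chosen with earlier results of these data known. Of 445 list symbols, 442 were matched. Values in every library are given for the 20 members with the largest smaller departure of the 2 knockdowns and for members of the lists. Other members are named with their ranges or by role, and genes outside the rule where called in both knockdowns or where their list turns on them. Hemocyte markers, *Drs*, *AttA*, *grass*, *Tl*, *pll*, *pirk*, *Rel*, *Acph-1*, *mt:ND4L* and the mitotic kinases were named after their values were seen. Alternatives were DESeq2 1.42.0, RLE scaling, other minimum levels and folds, medians, removal of a trend with exon length, no filter, the replicate block, each knockdown with the controls alone and each library left out in turn. Counting error, which depth limits, is not the only error of a CPM value, and the SD over replicates covers both.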

Additional observations from a re-analysis of the deposited data

How the results depend on the processing

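The rule gave 35 members. With a minimum control level of 10 CPM it gave 21, with a fold threshold of 0.3 it gave 95, and with a fold threshold of 1 it gave 3. Scaling by TMM gave 48 and by RLE 49, both holding all 35 members and adding genes such as *Adk1*, *Parp* and *Slc45-1*. Removal of the trend with exon length gave 39, of which 29 were members. Leaving out each library in turn gave 33 to 39. In these 9 settings 27 members were always kept, and *CG13315*, *Cys* and *alpha-Est1* were each lost in 3, *Alp4* and *SPARC* in 2, and *CNMa*, *Mmp2* and *Nplp2* in 1. Members called in both knockdowns stayed at 35 under DESeq2, RLE, no filter, the replicate block and each knockdown alone, and were 33 to 35 with a library left out. Those lost were *Alp4* without GFP dsRNA replicate 1 (34 called) or CycA dsRNA replicate 2 (34), *CG13315* and *Cys* without GFP dsRNA replicate 2 (33), *SPARC* without GFP dsRNA replicate 3 (34) and *alpha-Est1* without CycA dsRNA replicate 3 (34). Genes called higher with CycA dsRNA numbered 1954, with 1748 to 2240 under the alternatives and 1869 to 1975 with a library left out. Genes called lower with Myb dsRNA numbered 626, with 600 to 706 and 568 to 690.

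Libraries with the same replicate number showed little likeness, with correlations between -0.046 and 0.097. Whether same-numbered libraries belong together is uncertain, so these values cannot decide if the libraries were paired. The replicate block gave 1936 genes higher with CycA dsRNA and 621 lower with Myb dsRNA. The members at the lowest levels rest on few counts, down to 19 in 1 library for *CG34437*.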
